A study of Mus musculus with 2 samples.

Results

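The genes examined here encode the corepressors that Tcf factors work with: the Groucho family members Tle1, Tle2, Tle3 and Tle4, the C-terminal binding proteins Ctbp1 and Ctbp2, and the histone deacetylases Hdac1 and Hdac2. They were chosen by name, as every non-control spot whose array annotation gives one of these symbols alone or in a hyphen-joined pair. This gave 8 genes of the 17038 measured, with 285 spots, of which 0 were in a joined pair and 284 were used after 1 non-uniform spot was left out. In the study, DNA precipitated with Tcf3 (now Tcf7l1), a Tcf/Lef factor, was labelled with Cy5 and set against Cy3-labelled input DNA, all from the embryonic stem cell line E14 of the mouse grown without feeder cells, with no allele or treatment named in the labels. The DNA was hybridised to 2 Agilent promoter arrays that carry different probes, so that each of the 8 genes was measured on 1 array, with no replicate and no control precipitation among the data analysed here. The labels name antibodies to Tcf3, HA, Tle2, Tle3, CtBP and GST for chromatin work without saying which was put on the arrays, so Tcf3 rests on the sample titles, and whether both arrays received 1 precipitate is not given.

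Groucho proteins do not bind DNA themselves. They are recruited by Tcf/Lef factors and other repressors, and they hold target genes silent until beta-catenin takes their place on the Tcf factor. CtBP proteins are recruited through short peptide motifs of DNA-binding factors and bring demethylases and methyltransferases of histones, while Hdac1 and Hdac2 are the deacetylase subunits of the Sin3, NuRD and CoREST complexes and can also be brought in by Groucho. A Tcf factor that bound at these genes would therefore sit at the genes of its own partners. The question put to the data was whether Tcf3-precipitated DNA was enriched over input there.

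The values below are log2 ratios of precipitated over input DNA, centred on the median of each array, so that 0 is the typical probe and 1 is a 2-fold excess. A set is a probe together with the closest probe to its left and to its right, each within 1000 bp, and its mean is given with the SD over its probes, which describes scatter along the DNA and is not an error between samples. A probe was called where its set and the probes in it stood far enough above the scatter of the array, and a gene was called where 1 of its probes was; this rule is no test between samples. The input was well above background at 97.8% of probes on array 1 and 92.0% on array 2, but the precipitate at only 69.1% and 48.1%. For precipitate signals that did not exceed background, the authors' software had written a stand-in value (a surrogate), which happened for 30.7% of spots on array 1 and 51.7% on array 2. On both arrays the ratio also moved with base composition: probes with at least 60% GC had a median of 0.98 on array 1 and 0.57 on array 2, those with 45 to 60% GC 0.15 and -0.19, and those with under 45% GC -0.13 and 0.05.

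Of the 8 corepressor genes, Tle1 and Ctbp2 were called, both on array 1. All genes together were called at 12.9%, which divides into 22% on array 1 and 3.57% on array 2, so that calls were common on the array that carries Tle1, Ctbp1, Ctbp2 and Hdac1. The highest set mean per gene had a median of 1.23 over the members, against 1.15 over all genes, and 6 of 8 members lay above the median of their own array (1.22 on array 1, 1.07 on array 2). A highest set mean and a call can both rise with the number of probes of a gene. The members had 17 to 46 probes each, and all genes were not matched to them for probe number. Ctbp2 had the highest set mean of the 8 at 2.36 and Tle2 the lowest at 0.17. With 8 genes, 1 array each and no replicate, no test was made of the 25% of members called against the 12.9% of all genes.

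**Figure D1:**
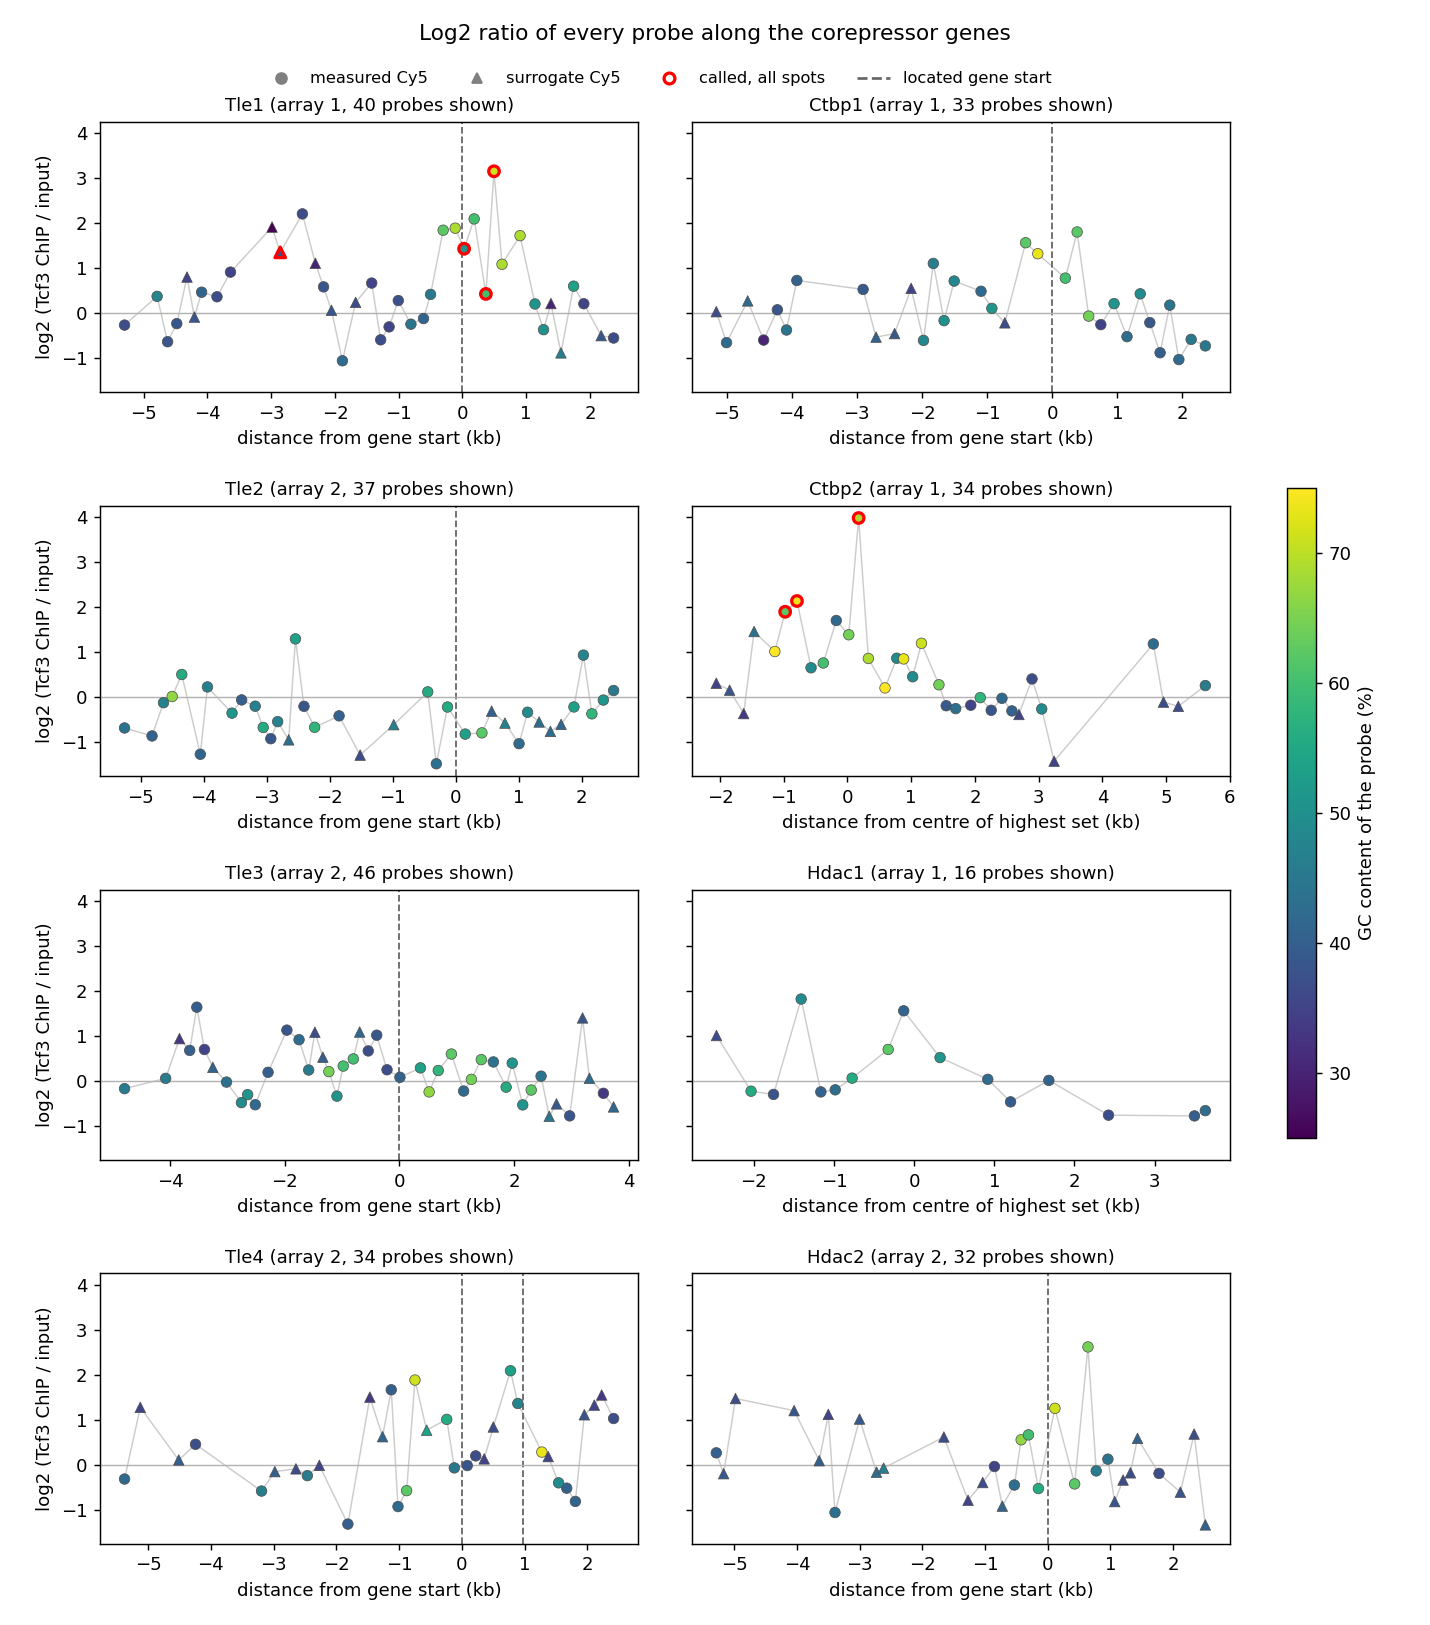
Log2 ratio of Tcf3 precipitate over input (vertical axis) for each probe of the 8 genes, against the distance in kb from the gene start along the direction of transcription, or from the centre of the highest set in array coordinates for Ctbp2 and Hdac1. Colour gives GC content, triangles are surrogate Cy5 signals, red outlines mark probes called with all spots and dashed lines the located starts; the highest points are 3.98 at Ctbp2 and 3.16 at Tle1, and 11 probes of Ctbp2 in a cluster that begins 41447 bp away are not drawn, nor is 1 of Hdac1 that begins 24671 bp away.

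Tle1 (Grg1 in the older mouse naming) was the one Groucho gene called with all spots. Its 40 probes on chromosome 4 ranged between -1.05 and 3.16 with a median of 0.37, and 11 were above 1. Its start could be placed on the array because the probe at -113 bp is found, letter for letter, in the RefSeq promoter window. The 250 bases before the start are shown because they place the enriched probes; capitals mark that probe, read on the gene's strand (chr4:72200894-72201143, GRCm38.p6, minus strand, 77.2% GC).
Tle1 promoter, RefSeq: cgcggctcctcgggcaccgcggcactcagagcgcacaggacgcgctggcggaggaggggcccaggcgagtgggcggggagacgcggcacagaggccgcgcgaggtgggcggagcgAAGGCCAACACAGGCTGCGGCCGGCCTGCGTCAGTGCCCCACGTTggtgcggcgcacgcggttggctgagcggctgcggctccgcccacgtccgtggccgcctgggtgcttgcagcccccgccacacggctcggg

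The probes around that start were high, except for the probe at +368 bp. Upstream, the probe at -302 bp had 1.85 and the one at -113 bp had 1.89. Downstream of the start, the values were 1.44 at +26 bp, 2.10 at +184 bp, 0.43 at +368 bp and 3.16 at +495 bp. These 6 probes averaged 1.81 ± 0.89 (SD over probes), and 1.05% of the 6485 located starts of array 1 had as high a mean, against a median of 0.40 over those starts. None of the 6 rested on a surrogate signal. The highest set of the gene, chr4:71633665-71634118, averaged 1.99 ± 1.06 over probes of 1.73, 1.09 and 3.16, and 11.7% of the genes of array 1 reached as high a set mean.

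The 2 ends of the called promoter region and 2 probes of a second stretch, called with all spots or with the GC trend subtracted, are shown, in the letters and coordinates of the array file, and the sources used here do not name the genome build of these coordinates. Capitals are absent because none of these probes holds a Tcf motif.
Tle1 chr4:71634074-71634118, called, log2 ratio 3.16: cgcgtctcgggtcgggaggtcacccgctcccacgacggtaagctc
Tle1 chr4:71634543-71634587, called, log2 ratio 1.44: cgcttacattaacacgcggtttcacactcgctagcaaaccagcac
Tle1 chr4:71637072-71637131, log2 ratio 2.21: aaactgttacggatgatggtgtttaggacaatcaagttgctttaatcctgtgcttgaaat
Tle1 chr4:71637420-71637479, called, log2 ratio 1.36: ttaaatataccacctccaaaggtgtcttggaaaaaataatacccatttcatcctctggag

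The probe with 3.16 gave a processed intensity of 12065 in the precipitate and 1595 in the input, an 8.94-fold ratio after centring, and is 71.1% GC. The second stretch, chr4:71636869-71637607, lies upstream of the start, with probes at -2308 to -2987 bp, and is AT-rich instead, at 21.7 to 36.7% GC. Its 4 probes averaged 1.65 ± 0.50, but 3 of the 4 precipitate signals were surrogates, and the inputs of 58.5 to 208 were below the array median of 466. The exception in that stretch is the measured probe with 2.21, which had an intensity of 818 in the precipitate and 208 in the input. Tle1 thus showed 1 stretch of GC-rich, well measured probes at its start and 1 stretch of AT-rich, mostly unmeasured probes upstream of it.

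Which of these stretches carried the call depended on whether the array's GC trend was subtracted. With the trend left in and all spots used, the called probes lay at +26 to +495 bp, with 1 more at -2859 bp that rested on a surrogate. With it subtracted, the probes of the start kept a mean of 0.99 ± 0.71, which 2.47% of starts reached, but none was called. The call of Tle1 then came from the probe with 2.21 at -2511 bp alone, where the set mean was 1.45 ± 0.99 with all spots and 1.76 ± 1.12, over 2 probes, with measured spots. Tle1 was therefore called under both treatments of GC, but at different places along the gene.

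Tle4 (Grg4) came next among the Groucho genes. Its 34 probes on chromosome 19 ranged between -1.31 and 2.10 with a median of 0.19. As at Tle1, 11 of them were above 1, and 14 of the 34 rested on surrogates. RefSeq gives 2 starts for the gene, and the highest probe lies 195 bp upstream of the more downstream start. Its place in the promoter window of that start is shown in capitals, followed there by a second matched probe (chr19:14597214-14597463, GRCm38.p6, minus strand), and below it the probe as the array carries it.
Tle4 promoter, RefSeq: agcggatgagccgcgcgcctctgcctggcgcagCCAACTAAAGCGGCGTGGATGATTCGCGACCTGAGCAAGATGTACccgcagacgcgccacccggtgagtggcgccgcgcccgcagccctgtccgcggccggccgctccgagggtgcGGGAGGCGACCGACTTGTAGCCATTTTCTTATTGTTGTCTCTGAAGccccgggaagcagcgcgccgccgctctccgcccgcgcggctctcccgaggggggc
Tle4 chr19:14298079-14298123, log2 ratio 2.10: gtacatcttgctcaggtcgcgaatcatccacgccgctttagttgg

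That probe had an intensity of 2423 in the precipitate and 579 in the input, a 4.27-fold ratio after centring, at 53.3% GC. Its neighbour at -79 bp had 1.37, and the one at -469 bp, a surrogate, 0.84. The set of these 3 averaged 1.44 ± 0.63, a level that 25.1% of the genes of array 2 reached, and Tle4 was not called with all spots. Within 500 bp of the downstream start the 5 probes averaged 0.96 ± 0.79, which 6.38% of the 5911 starts of array 2 reached, against a median of 0.14. Around the other start the mean was 0.25 ± 0.44, a level reached by 40.8% of starts. The probe with 2.10 was called once surrogates were left out, once the GC trend was subtracted and with both. Unlike at the promoter of Tle1, subtracting the GC trend did not lower the ratio of this probe. The highest set mean of the gene was 1.43, 1.51 and 1.41 under these 3 treatments. With surrogates left out, that highest set was centred on the neighbour with 1.37, which was not called. A run of 4 probes with 1.03 to 1.56 further downstream, at +982 to +1448 bp, held 3 surrogates and no call under any of these 4 treatments. In that run, the input signals at +1141 and +1258 bp were surrogates as well.

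Tle3 (Grg3), which in fat cells works with the receptor PPAR-gamma, had a broad but low profile. Its 46 probes on chromosome 9 ranged between -0.78 and 1.64 with a median of 0.22, and 30 were above 0, but 6 were above 1 and no 2 of these were adjacent. The highest set, chr9:61395431-61395791, averaged 1.09 ± 0.50 and is centred at about -3655 bp from the start, and 48.9% of the genes of array 2 had one as high. At the start itself 4 probes averaged 0.41 ± 0.42, which 29.7% of starts reached. The probe with 1.64, at -3531 bp, was not called when surrogates were left out or the GC trend was subtracted alone, but was called with both together, where its set mean was 1.26 ± 0.69.

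Tle2 (Grg2) was the lowest of the 8 genes. Its 37 probes on chromosome 10 had a median of -0.41, and 7 were above 0. A single probe, at -2544 bp from the start, exceeded 1, at 1.30. Around the start the values were 0.12 at -443 bp, -1.48 at -307 bp, -0.22 at -129 bp, -0.82 at +152 bp and -0.79 at +417 bp. Their mean of -0.64 ± 0.62 was reached by 97.2% of the starts of array 2, and the highest set mean of the gene, 0.17 ± 0.68, by 96.4% of genes. A value below 0 is less precipitated DNA than at the typical probe and is no measure of absence. By rank within their own arrays, the 4 Groucho genes thus lay far apart. The highest set mean of Tle1 was reached by 11.7% of the genes of array 1, and that of Tle2 by 96.4% of those of array 2.

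**Figure D2:**
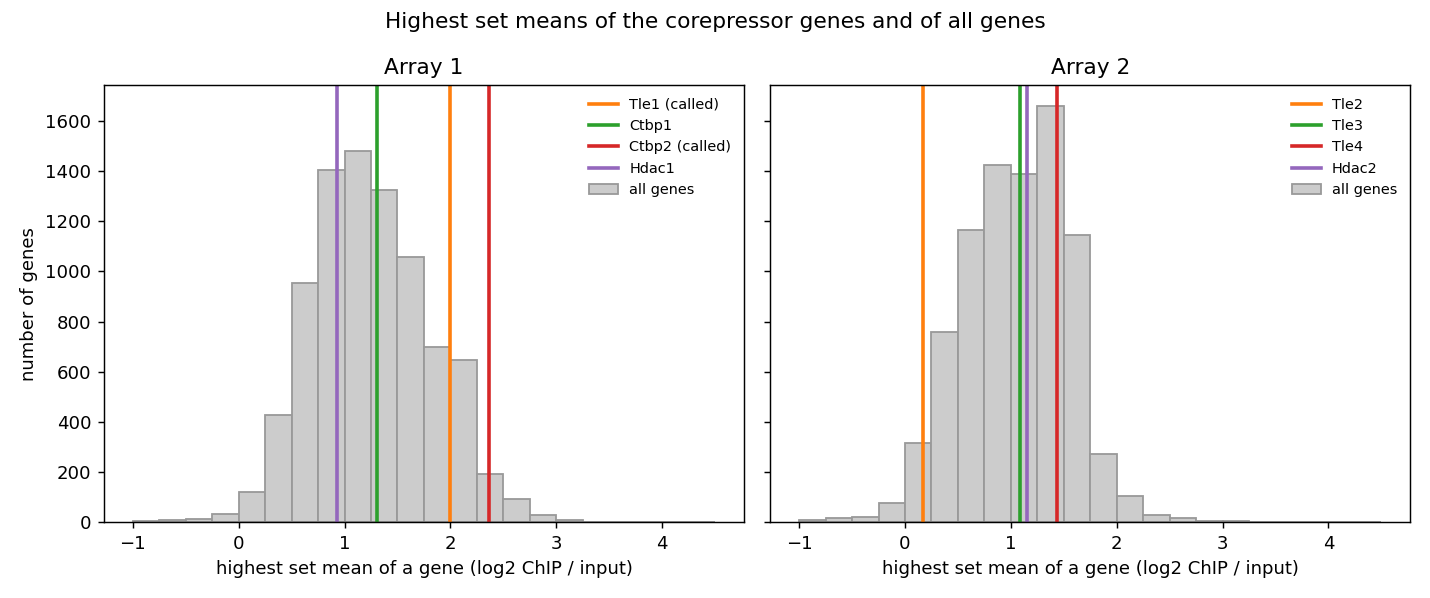
Number of genes (vertical axis) by the highest set mean of the gene, in log2 of precipitate over input (horizontal axis), with 1 panel per array; coloured lines are the 8 corepressor genes. Ctbp2 at 2.36 and Tle1 at 1.99 lie in the upper tail of array 1, Tle4 at 1.44 is the highest of the 4 on array 2, and Tle2 at 0.17 lies in the lower tail.

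Ctbp2 gave the strongest signal. The gene is known for a second product, the synaptic ribbon protein Ribeye, made from a start of its own, and the array covers it in 2 clusters of probes. The cluster at chr7:129525790-129533517 has 34 probes and reached 3.98, with 9 above 1 and 3 called. The other, at chr7:129484343-129486529, begins 41447 bp away and has 11 probes with a median of -0.32 and 1 probe above 1, at 1.15. Enrichment was thus seen in the first cluster and not in the second, where 0 probes were called. The called probes are shown in array coordinates, and none holds a Tcf motif.
Ctbp2 chr7:129526878-129526922, log2 ratio 1.90: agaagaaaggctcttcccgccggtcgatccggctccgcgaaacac
Ctbp2 chr7:129527063-129527107, log2 ratio 2.14: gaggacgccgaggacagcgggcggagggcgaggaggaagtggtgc
Ctbp2 chr7:129528031-129528075, log2 ratio 3.98: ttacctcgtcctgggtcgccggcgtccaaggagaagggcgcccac

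The probe with 3.98 gave an intensity of 3860 in the precipitate and 288 in the input, a 15.8-fold ratio after centring, and both were measured. Its own set averaged 2.08 ± 1.67. The highest set of the gene, chr7:129527679-129528075, is centred on the neighbouring probe with 1.39 and averaged 2.36 ± 1.42 over values of 1.71, 1.39 and 3.98. On array 1, 215 of 8502 genes (2.53%) had a set as high. A second run of 4 probes, chr7:129526389-129527107, averaged 1.63 ± 0.50, with GC contents of 43.8 to 80.0% and 1 surrogate. When the GC trend was subtracted, the second run fell to 0.67 and held no call. The set centred on the probe with 1.39 kept 1.75 ± 1.17 and that probe was called, while the probe with 3.98 was not. After the subtraction the called probe itself had 0.46, between neighbours with 2.03 and 2.75. Neither of the RefSeq windows of Ctbp2 matched a probe, so the distance of these probes to a start was not computed.

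Ctbp1, which shares with Ctbp2 a fold related to dehydrogenases, had its high probes at its start. Its 33 probes on chromosome 5 had a median of 0.04 and ranged between -1.03 and 1.81. The values within 500 bp of the start were 1.57 at -408 bp, 1.33 at -221 bp, 0.78 at +202 bp and 1.81 at +383 bp. They averaged 1.37 ± 0.44, and 4.32% of the starts of array 1 were as high. All 4 probes had 60% GC or more, and after the GC trend was subtracted their mean was 0.44 ± 0.52, which 23.3% of starts reached. The highest set mean of Ctbp1 likewise was 1.31 ± 0.51 with the trend left in and 0.50 ± 0.80 with it subtracted, and the gene was not called either way. The highest probe, at 62.2% GC, is shown for comparison with those of Tle1 and Ctbp2.
Ctbp1 chr5:32337345-32337389, log2 ratio 1.81: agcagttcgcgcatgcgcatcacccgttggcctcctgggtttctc

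The deacetylase genes were not called. Hdac1, a main deacetylase of embryonic stem cells, had 17 probes on chromosome 4 with a median of 0.02, of which 3 were above 1. Its highest probe, with 1.82, had neighbours so low that the set around it averaged 0.43. The highest set of the gene averaged 0.93 ± 0.56, which 69.8% of the genes of array 1 reached. No start of Hdac1 was placed.

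Hdac2, the closest relative of Hdac1, had 32 probes on chromosome 10 with a median of -0.10, of which 19 rested on surrogates, the highest share among the 8 genes. A single measured probe 643 bp downstream of the start stood out with 2.62, a 6.16-fold ratio, at 64.4% GC. The probe before it, at +430 bp, had -0.42 and the one at +115 bp had 1.26, so that the set of these 3 probes averaged 1.15 ± 1.53 and the SD exceeded the mean. Around the start the 5 probes averaged 0.31 ± 0.76, which 36.8% of starts reached. Of the other probes of Hdac2 above 1, those far upstream, between -4982 and -3002 bp, were all surrogates. At -4982 bp the input signal was a surrogate as well.
Hdac2 chr10:36756290-36756334, log2 ratio 2.62: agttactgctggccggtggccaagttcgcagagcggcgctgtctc

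**Figure D3:**
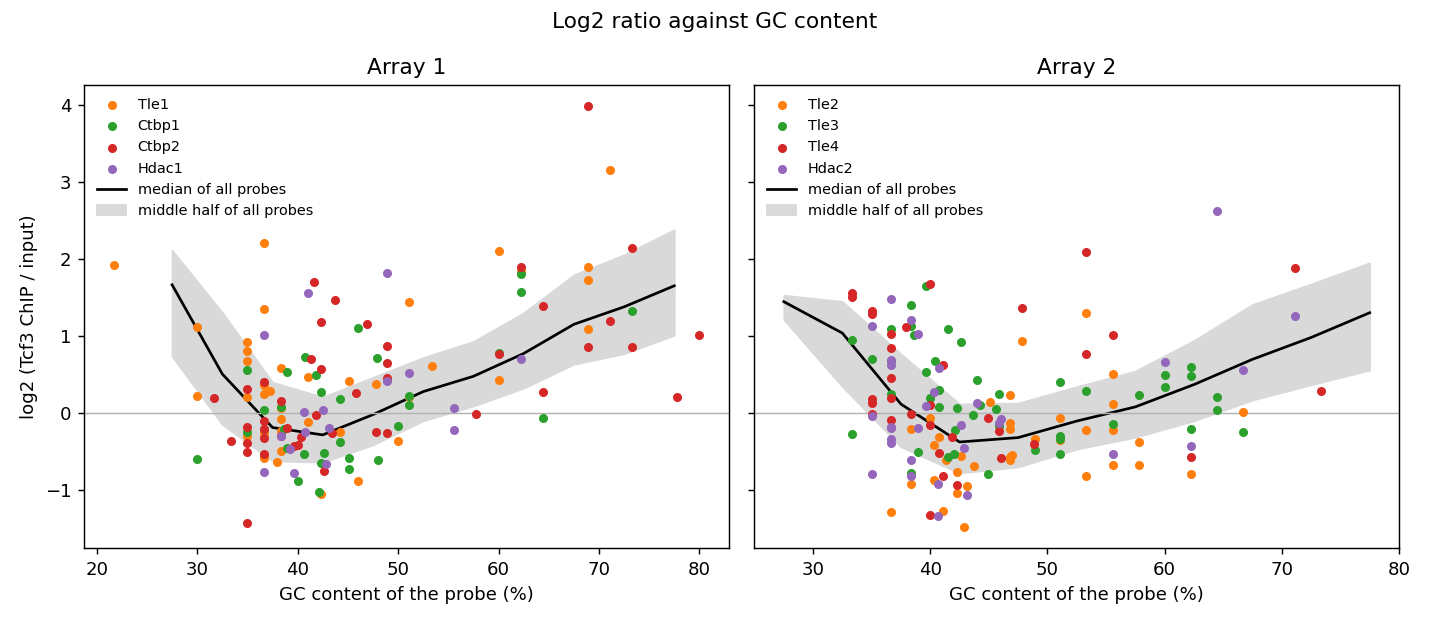
Log2 ratio of precipitate over input (vertical axis) against the GC content of the probe in percent (horizontal axis), with members' probes as coloured points, the median of all probes of the array as a line and their interquartile range in grey. On both arrays the median rises toward GC-rich and toward very AT-rich probes, and the points with 3.98 (Ctbp2), 3.16 (Tle1) and 2.62 (Hdac2) lie above the grey band at their GC content.

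The highest probes of the members were mostly GC-rich. Of the 7 members' probes called with all spots, 5 had at least 60% GC and 1 was a surrogate. All 7 were on array 1, where 2.11% of probes were called, against 0.167% on array 2. By class, array 1 called 8.88% of 12089 probes with at least 60% GC and 0.544% of 57037 with 45 to 60%. It called 2.15% of the far more numerous 168060 probes with under 45%. Of the 7 members' probes above 2, which are a different selection, 5 had at least 60% GC. The same share over all probes above 2 is not given here. GC-rich probes were not high in each gene: their median was 1.85 over 7 probes in Tle1, 1.33 over 5 in Ctbp1 and 1.02 over 11 in Ctbp2, but 0.67 over 5 in Hdac2, 0.29 over 3 in Tle4, 0.27 over 8 in Tle3 and -0.39 over 2 in Tle2. Hdac1 had 1 such probe, with 0.70. The values of Tle1, Ctbp1, Ctbp2 and Hdac1 are to be read against 0.98 for all GC-rich probes of array 1, and those of Tle2, Tle3, Tle4 and Hdac2 against 0.57 on array 2. The part of base composition in the enrichment at any single gene was not tested beyond the subtraction of the trend.

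Tcf factors bind sites such as the word CTTTGAA, its variant CTTTGAT, the word CTTTGTA and its variant CTTTGTT, and these letters were searched on both strands. They were found in 12 of the 284 members' probes (4.23%), against 5.68% of all probes on array 1 and 5.71% on array 2. These 12 probes had a median of -0.23 and ranged between -0.78 and 1.09, while members' probes without the letters had a median of 0.08. Both medians pool the 2 arrays. Over all probes, the medians with and without the letters were -0.06 and 0.003 on array 1. On array 2 they were 0.08 and -0.005, so the direction differed between the arrays. None of the 7 called probes, all on array 1, held a full word, against 6.04% of all called probes of that array. At that share, a count of 0 among 7 probes says nothing particular about the members. The shorter core CTTTG, which is part of each of the 4 words, was in 42 members' probes (14.8%), 1 of them called, against 17.2% of all probes on array 1 and 17.3% on array 2. The share of full words over all probes above 1 is not given here. Of the 52 members' probes above 1, 2 held a full word, and both precipitate signals were surrogates. They are shown with the word in capitals, as CTTTGTT on the opposite strand in Tle3 and CTTTGTA in Hdac2.
Tle3 chr9:61398574-61398626, at -693 bp from the start, log2 ratio 1.09: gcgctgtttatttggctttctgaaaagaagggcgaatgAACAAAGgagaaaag
Hdac2 chr10:36752638-36752696, at -3002 bp from the start, log2 ratio 1.02: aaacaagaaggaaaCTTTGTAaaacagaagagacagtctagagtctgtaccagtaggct

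The RefSeq promoter windows, which run 250 bases upstream to 50 bases downstream of a start, were searched for the same letters. Of the 9 windows of 7 members, 0 held one of the full words, against 16.9% of all RefSeq windows, and 2 (22.2%) held the core CTTTG, against 53.9%. GC-rich sequence holds such AT-rich words less often in general: on array 1, 0.579% of probes with at least 60% GC held a full word. The probes shown are 45 to 60 bases long and the DNA fragments averaged 500 bp per the labels, so that a word outside a probe could lie on the precipitated fragment. The absence of these letters from a probe or window says nothing else about the factor.

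**Figure D4:**
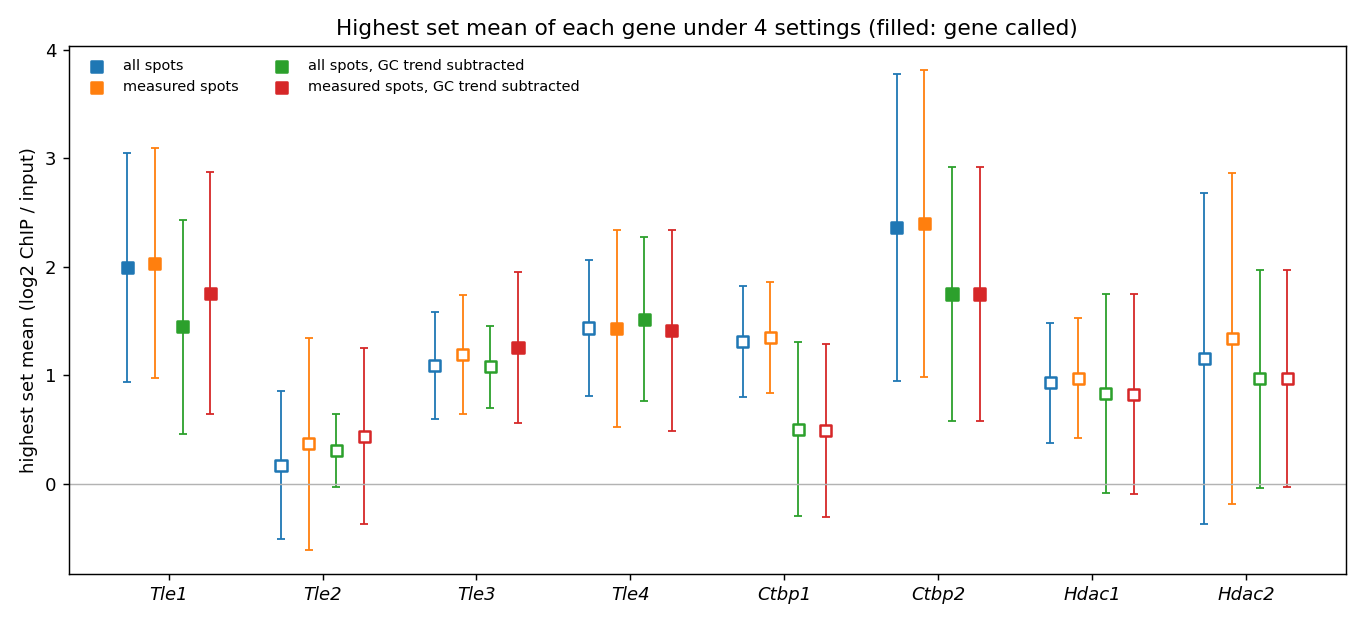
Highest set mean of each member in log2 of precipitate over input (vertical axis), with bars of 1 SD over the probes of the set, under 4 treatments of the values; filled squares mark genes called. Tle1 and Ctbp2 are called under all 4, Tle4 under 3 and Tle3 under 1, and Ctbp1 drops to 0.50 and 0.49 once the GC trend is subtracted.

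The calls of the members were followed through the treatments that act on surrogates and on GC content. With measured spots, 3 members were called (Tle1, Tle4 and Ctbp2), against 13.2% of 16862 genes. With the GC trend subtracted from all spots, the same 3 were called, against 10.6% of genes. With both, 4 members were called (Tle1, Tle3, Tle4 and Ctbp2), against 12.9% of genes. Ctbp1, Hdac1, Hdac2 and Tle2 were called under none of these 4 treatments. The shares of genes pool both arrays, while Tle3 and Tle4 lie on array 2, where calling itself changed. With all spots, 397 of 237167 probes of array 2 were called. Without surrogates the number was 1387 of 114386, with the GC trend subtracted 370 of 237167, and with both 869 of 114386. On array 1 the called probes numbered 5000, 2321, 3151 and 2682 in the same order. The share of array 2 genes called under each alternative is not given here. The median of the members' highest set means was 1.34, 1.02 and 1.11 under the 3 alternatives, against 0.98, 0.91 and 0.85 over all genes. Tle1 and Ctbp2 were also called under the other alternatives. These called 7.94% of all genes (log10 ratio column), 49.4% (normexp background correction), 43.6% (intensity trend subtracted), 12.1% (without dim input), 8.21% and 16.5% (set probability of 0.0001 and 0.01) and 12.7% (neighbours within 500 bp).

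Other corepressor genes were called at about the share of all genes. Of 38 listed, 34 were analysed and 4 (11.8%) were called, against 12.9% of all genes, and their median highest set mean was 1.01, against 1.15. Rbbp7, a histone-binding subunit of several deacetylase complexes, had 3.15 over a set of 2 probes with 35.7% GC and no surrogate. Tbl1xr1, a subunit of the NCoR complex, had 2.34 ± 1.04. Both stayed called under the 4 treatments above. Ehmt1, a histone methyltransferase found with CtBP, had 2.06 in probes of 77.8% GC and was not called once the GC trend was subtracted, when it had 0.61. Sin3b, a scaffold for Hdac1 and Hdac2, had 1.74 over 2 probes of which 1 was a surrogate, and lost its call when surrogates were left out and when the GC trend was subtracted. The highest genes not called with all spots were Tbl1x with 1.74, Kdm1a with 1.70 and Hdac9 with 1.56. With measured spots 6 of the 34 (17.6%) were called, Tbl1x among them, against 13.2% of all genes. With the GC trend subtracted as well, 3 (8.82%) were called, again with Tbl1x, against 12.9% of all genes. Mta2, Gatad2b, Zfp217 and Zeb1 were not analysed here.

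Genes for proteins that beta-catenin works with in place of the corepressors were listed for comparison. Of 10 listed, 7 were analysed and 0 were called with all spots, against 12.9% of all genes. Their median highest set mean was 1.46, against 1.15 over all genes. The highest were Ctr9 with 1.61 and Cdc73 with 1.55, both of the Paf1 complex, and the acetyltransferase gene Crebbp with 1.49. With measured spots Ctr9, Cdc73 and Ctnnb1, the gene of beta-catenin, were called, against 13.2% of all genes. Ctr9 was the one called with measured spots and the GC trend subtracted, against 12.9% of all genes. Bcl9, Pygo1 and Pygo2 were not analysed here.

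Against genes known as Tcf targets, the members were lower or about as high. Tcf7l1, the gene of the precipitated factor, had a highest set mean of 2.46 ± 0.83, and Axin2, a feedback inhibitor of the Wnt pathway, had 2.43 ± 0.27. Ctbp2, at 2.36 ± 1.42, was close to both in log2 ratio, but its mean leaned on the 1 probe with 3.98, whereas the 3 probes of Axin2 were alike. Tcf7l1 and Ctbp2 were measured on array 1 and Axin2 on array 2, where such heights were rarer. Highest set means of 2.25 to 2.5 were found for 192 genes on array 1 and for 27 on array 2. With the GC trend subtracted, Tcf7l1 had 2.66 and Axin2 had 2.47, while Ctbp2 had 1.75 and Tle1 had 1.45. No replicate was available to test these differences.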

How the data were processed

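Precipitated and input DNA of E14 cells were hybridised to 2 arrays, per the labels' protocols. The authors read them with Agilent Feature Extraction 9.1.1.1. Its deposited processed intensity of each channel had background subtracted, trends removed, dyes normalized and surrogates set, per the file headers. The log10 ratio (Cy5 over Cy3) that the authors deposited served as an alternative. The authors' own calls are not used here.

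Log2 of Cy5 over Cy3 was centred, array by array, on the median over non-control spots (Python 3.11.15, numpy 2.4.6, scipy 1.17.1, pandas 2.3.3), leaving out non-uniform spots (9 and 18). For single probes, the scale of no enrichment came from values below the median (0.72 on array 1 and 0.78 on array 2). For set means it came from the set means below 0, separately for sets of 2 and of 3 probes. Calling used upper-tail normal probabilities. That of the set mean had to be below 0.001. In addition, either the probe had to be below 0.001 and 1 neighbour below 0.1, or at least 2 probes in the set below 0.005. Because the arrays carry different probes, no test between samples was possible, and precision is limited by the number of arrays. Starts were placed by exact matches of probes to RefSeq promoter windows of GRCm38.p6 (12476 starts of 10912 genes; 28 further starts with conflicting matches were left out). The GC trend is the median log2 ratio per GC bin of 2%, and measured spots are those without surrogates. Other alternatives used normexp with an offset of 50 (limma 3.58.1, R 4.3.3), an intensity trend, dim or marked spots left out, set probabilities of 0.0001 and 0.01, neighbours within 500 bp and a minimum set mean of 1. The caller was also run on simulated, independent normal values at the real probe positions. These held no GC trend and no surrogates, so the simulation does not bear on the effect of either.

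Members, lists and alternatives were chosen with earlier results of these data known. Named genes are the members, the called genes and 3 highest uncalled genes of each of 2 lists, and Tcf7l1 and Axin2 for comparison; Ctnnb1, called under an alternative, was added after its values were seen. Gene symbols of the arrays were updated through the RefSeq table, where 12575 matched as current, 3950 as older and 581 not at all.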

Additional observations from a re-analysis of the deposited data

How the results depend on the processing

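Over 12 alternatives, Tle1 and Ctbp2 were called in all 12, with set means of 1.45 to 2.03 and 1.75 to 2.40. Tle4 was called in 5 (1.25 to 1.64), Tle3 in 3 (1.01 or more), Hdac2 in 2 (0.97 to 1.53), and Ctbp1, Hdac1 and Tle2 in 1 each. Of 96 highest set means, 2 moved by more than the SD over the probes, both of Ctbp1 after the GC trend was subtracted, and 0 changed sign. This count overstates stability, because changing the set probability or the minimum set mean acted on calling alone and could not move a set mean. A set probability of 0.01 could add calls but not lose them. Leaving out marked spots changed little, with 237186 probes kept on array 1, as with all spots, and 237166 of 237167 on array 2. Normexp background correction called 7 members, 24 other corepressor genes and 7 coactivator genes, but also 49.4% of all genes. Subtracting the intensity trend called 6 members, 18 other corepressor genes and 6 coactivator genes, against 43.6% of all genes. Measured spots with the GC trend subtracted gave 4 members and 1 coactivator gene, against 12.9% of all genes. With the GC trend subtracted, 2 other corepressor genes were called, against 10.6% of all genes. Of the coactivator genes, measured spots called 3, and leaving out dim input or a set probability of 0.01 called 1, against 0 with all spots. These 3 alternatives called 13.2%, 12.1% and 16.5% of all genes. The log10 ratio column left the members' count at 2 while calling 7.94% of all genes. Surrogates, 51.7% of spots on array 2, limit what can be read at AT-rich probes. Each of the 8 genes lies on 1 array, so leaving out a replicate was not possible. No paired analysis was possible because the arrays carry different probes.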
